A study of Mus musculus with 96 samples.

Results

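Hippocampal microglia of young mice were compared 6 h after abdominal surgery with those of young control mice. The comparison holds the 8 libraries, of 96 in the series, that the labels give as young hippocampus at 6 h: 4 from surgery animals and 4 from controls, each matched to its data column by its library name. All animals were wild type, and the young ones were 3 to 5 months old. What the control animals underwent (anaesthesia, sham procedure or nothing) is not stated, so the contrast is surgery with everything that came with it against the control handling. Microglia were sorted as CD11b+ Fcrls+ Ly6C- cells, 1000 of them were lysed per library, and RNA was read with the full-length Smart-seq2 protocol. The library names give each hippocampus library and a hemisphere library the same sort number, taken here as 1 animal. Old mice (20 to 22 months, 8 controls and 7 after surgery), the hemisphere of the same 8 young animals, and other young mice at 48 h serve below only for comparison.

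Surgery and anaesthesia activate the hypothalamic-pituitary-adrenal axis, which releases glucocorticoid hormone into the blood. The hormone enters cells, frees the glucocorticoid receptor (Nr3c1) from a complex with HSP90 and its co-chaperones, and the receptor then binds DNA at glucocorticoid response elements, built from a pair of inverted TGTTCT arms. Microglia are among the brain's receptor-expressing cells. Known targets include Tsc22d3 (GILZ, a leucine zipper protein that restrains NF-kB and AP-1), Fkbp5 (a co-chaperone that lowers the receptor's affinity for hormone), Per1 (a clock repressor) and Sgk1 (a serine/threonine kinase).

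Of 13703 genes tested with edgeR's quasi-likelihood test, 5 rose after surgery at a Benjamini-Hochberg (BH) adjusted p below 0.05, which is 0.0365% of the genes tested. None fell at that threshold, although 503 genes had an unadjusted p below 0.05 on the lower side and DESeq2 called 6 lower. The 5 that rose were Tsc22d3, Fkbp5, Ddit4 (REDD1, an inhibitor of the growth kinase complex mTORC1), Ccnd3 (cyclin D3, a partner of the G1 kinases CDK4 and CDK6) and the gene model Gm10392. Tsc22d3, Fkbp5 and Ddit4 belong to a list of 23 glucocorticoid-induced genes, and Ddit4 also to a list of brakes on PI3K and mTORC1 signalling. The level of each gene is given below as CPM (counts brought to a common library total of 1e+06, with TMM normalization), and a difference as log2 fold change of surgery minus control with its standard error. The median log2 fold change over all genes tested was -0.02.

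Control replicates 1 and 4 stood apart from the other 6 libraries before any gene was considered. Their low values did not run 1, 2, 3 as counts do: values of 1 made up 4.11% and 9.93% of all values from 1 to 3, against 53.8% to 64.3% in the other 6, and they are called stepped libraries here. In them 56.9% and 55.2% of the counts lay in the 15 largest gene models, nearly all repeat-like or ribosomal, against 71.1% to 75.7% in the other 6. Total counts ran from 1874168 to 3497144 in controls and from 2473827 to 3481921 after surgery. The sources used here do not say how the stepped values arose. A second fit without stepped libraries also left out old surgery replicates 5 and 6, which are stepped by the same measure (5.02% and 24.7%), 4 libraries in all. Its value is given beside a gene or list median that it moved by more than 1.5 times.

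The sort held microglia by their defining markers. The summed level of 24 homeostatic microglial genes, on a CPM scale without the 15 largest models, was 32526 and 46328 in the stepped controls, 80682 and 57641 in the other 2 controls, and 61528 to 68245 after surgery. Neuronal, pericyte, T and NK cell, erythrocyte and oligodendrocyte precursor markers were each below 50 on that scale in all 8 libraries. Border-associated macrophage markers summed to 812 to 1091 in controls and 1333 to 1560 after surgery, without overlap, and 9 of the 10 were below 50 in every library. The difference lay in Stab1, a scavenger receptor, at 238 ± 31.4 CPM in controls and 386 ± 25.5 after surgery (SD, n = 4 each). Its log2 fold change of 0.70 ± 0.23 did not pass (adjusted p = 0.426). The other 3 tested markers of that list, F13a1, Mrc1 and Clec12a, had log2 fold changes of 0.49, -0.67 and -0.50 (Clec12a 0.27 without the stepped libraries). The highest markers of other types were Csf3r (up to 787), Ttr (up to 542), Ighm (up to 514) and Slc1a3 (up to 409), each with overlapping groups. Slc1a3, an astrocyte glutamate transporter, had a log2 fold change of 0.66 ± 0.27 (adjusted p = 0.588), and Ighm, the IgM heavy chain, -0.67 ± 0.23 (adjusted p = 0.476). In sorted bulk RNA, more cells of a type and more RNA per cell cannot be told apart. The part of neutrophils or of Stab1-, Slc1a3- or Ighm-bearing cells in the results below was not tested.

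The sequences upstream of 4 listed genes are shown because their readouts differed: Tsc22d3 and Fkbp5 rose, Sult1a1 lay just outside the threshold, and Sgk1 did not pass. They come from RefSeq (GRCm38.p6), run 5′ to 3′ along the gene's strand from 250 bases before the RefSeq start, and stop where an annotated exon begins. Where a gene has several starts, the window with most matches to the response element or its arms is shown. Sgk1 had 6 windows to pick from, Tsc22d3 3, and Fkbp5 and Sult1a1 1 each. Which start these cells used was not measured. Capitals mark TGTTCT or its reverse complement AGAACA, the response element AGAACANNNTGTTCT, and the E-box CACGTG that clock factors bind.
Tsc22d3: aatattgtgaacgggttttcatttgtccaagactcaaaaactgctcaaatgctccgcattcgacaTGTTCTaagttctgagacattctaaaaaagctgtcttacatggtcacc
Fkbp5: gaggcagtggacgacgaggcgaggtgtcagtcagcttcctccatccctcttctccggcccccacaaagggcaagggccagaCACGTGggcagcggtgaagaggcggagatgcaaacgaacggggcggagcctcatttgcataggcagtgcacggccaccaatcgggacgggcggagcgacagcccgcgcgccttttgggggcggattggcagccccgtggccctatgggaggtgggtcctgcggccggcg
Sult1a1: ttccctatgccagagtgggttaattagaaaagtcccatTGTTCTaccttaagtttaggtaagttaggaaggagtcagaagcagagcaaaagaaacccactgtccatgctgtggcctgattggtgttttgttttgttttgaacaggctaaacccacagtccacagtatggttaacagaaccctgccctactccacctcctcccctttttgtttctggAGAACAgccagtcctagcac
Sgk1: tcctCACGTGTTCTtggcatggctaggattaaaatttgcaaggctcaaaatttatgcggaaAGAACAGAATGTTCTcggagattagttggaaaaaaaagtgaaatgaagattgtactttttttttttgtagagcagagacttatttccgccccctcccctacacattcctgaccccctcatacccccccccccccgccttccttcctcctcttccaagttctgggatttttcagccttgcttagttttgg

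The Tsc22d3 stretch lies at chrX:140600660-140600772 (minus strand) and holds 1 TGTTCT, 185 bases before the start. That of Fkbp5, chr17:28486150-28486399 (minus strand), holds neither arm and 1 E-box. Sult1a1, at chr7:126676433-126676668 (minus strand), holds 2 arms that lie apart. The Sgk1 stretch, chr10:21993640-21993889 (plus strand), holds the complete element, and near its 5′ end an E-box that overlaps a TGTTCT arm. On either strand TGTTCT occurred in 16.1% of the 32851 RefSeq windows of 250 bases, the E-box in 6.02% and the complete element in 0.00913%, which is 3 windows. Of the 23 glucocorticoid-induced genes, 21 had 31 windows between them. Of these windows 6, from 4 genes, held an arm and 6, from 6 genes, an E-box. A match is a description of the letters, and receptor binding was not measured.

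Tsc22d3 (ENSMUSG00000031431, chrX:140539528-140600659) stood at 32.1, 19.6, 28.2 and 21.4 CPM in control replicates 1 to 4 and at 140, 82.1, 69.6 and 83.4 CPM in surgery replicates 1 to 4. The groups did not overlap, and the lowest surgery library was above the highest control by more than the whole control range. Its log2 fold change was 1.88 ± 0.29 (adjusted p = 0.00809). Behind these levels were 39 to 155 counts in the controls and 167 to 303 after surgery.

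Fkbp5 (ENSMUSG00000024222, chr17:28399094-28517527) had 21.6, 11.5, 18.1 and 11.4 CPM in the controls and 115, 74.0, 49.6 and 35.4 CPM after surgery, a log2 fold change of 2.11 ± 0.36 (adjusted p = 0.021). The surgery animals themselves spread over more than 3-fold, while all 4 lay above every control. The gene models AC154912.1 and AC154912.3, which lie inside the Fkbp5 locus, had log2 fold changes of 1.24 ± 0.34 and 1.47 ± 0.45. Their reads cannot be told apart from unspliced Fkbp5 transcript, as the use of strand in counting is not given.

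Ddit4 (ENSMUSG00000020108, chr10:59949669-59951834) was nearly silent in controls, at 1.87, 0, 1.45 and 0.455 CPM, and reached 14.8, 13.1, 7.08 and 12.2 CPM after surgery. These are 9, 0, 4 and 2 counts against 32, 42, 17 and 32. It had the largest fold of the 5, at 3.47 ± 0.62 on the log2 scale (adjusted p = 0.0252), on the fewest counts.

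Ccnd3 (ENSMUSG00000034165, chr17:47505051-47599691) had 34.6, 34.1, 43.5 and 24.1 CPM in controls and 104, 95.2, 74.98 and 65.1 CPM after surgery. Its log2 fold change was 1.32 ± 0.25 (adjusted p = 0.0437), the one nearest to the threshold. In a list of 17 G1 cyclins and CDK inhibitors, 9 were tested and Ccnd3 alone was called. Its kinase partner Cdk6 had 148 CPM in surgery replicate 1 but 18.7 to 35.8 in the other 3 surgery libraries, with 15.2 to 29.6 in controls. Cdkn1a (p21, an inhibitor of cyclin-CDK complexes) had 7.996 to 11.7 CPM after surgery and 8.03 to 23.4 in controls, with a log2 fold change of -1.01 ± 0.42 (adjusted p = 0.599). Cyclin D1 had -0.57.

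Gm10392 (ENSMUSG00000072673, chr11:77516660-77519198) had 8.29, 9.03, 11.6 and 8.87 CPM in controls and 41.1, 24.6, 24.6 and 17.1 CPM after surgery, a log2 fold change of 1.50 ± 0.26 (adjusted p = 0.0213). The model lies within Abhd15, an alpha/beta hydrolase gene on the other strand. Abhd15 had a log2 fold change of 1.21 ± 0.38 (adjusted p = 0.402), and 0.63 without the stepped libraries. Without strand the reads of the 2 cannot be told apart, so the call belongs to the locus rather than to Gm10392.

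**Figure D1:**
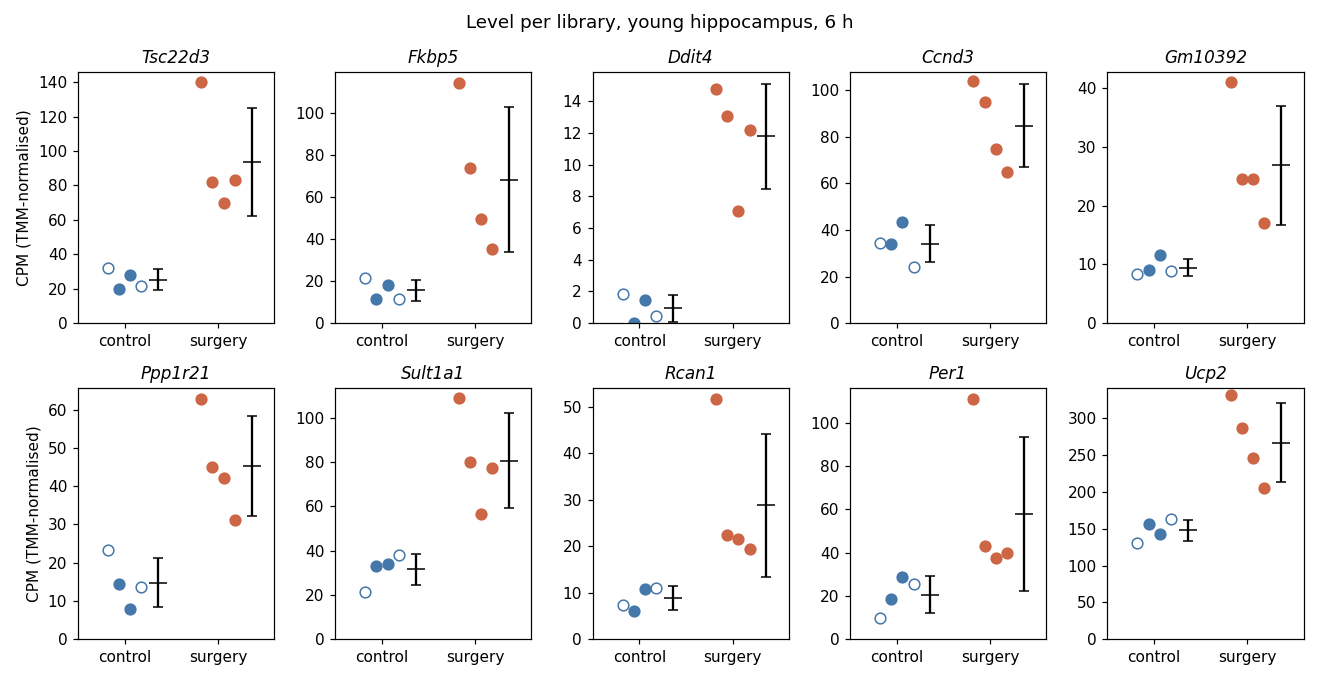
Level of the 5 genes that rose and of 5 picked from those near the threshold or on the glucocorticoid list, in CPM on a linear axis from 0. Dst, which had a smaller p than Ucp2 but overlapping groups, is not shown. Each circle is 1 library (open circles: stepped controls 1 and 4; within a group the circles run from replicate 1 to 4), and the bar gives mean and SD of 4. All 10 genes have separate groups, and surgery replicate 1 is the highest library in each panel.

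Surgery replicate 1 had the highest level of all 5 genes that rose. It was also the highest surgery library for 18 of the 23 named genes whose surgery libraries all lay above the controls. Many of the named genes were picked by their values, and the same count over all genes was not made. Whether this order is particular to the named genes was thus not tested. Without surgery replicate 1 no gene passed, 849 having an unadjusted p below 0.05. The 5 genes then kept log2 fold changes of 1.62 (Tsc22d3), 1.75 (Fkbp5), 3.35 (Ddit4), 1.20 (Ccnd3) and 1.23 (Gm10392). Without surgery replicate 2 only Tsc22d3 passed (adjusted p = 0.0188). Without control replicate 2 or control replicate 4, 2 genes passed, Tsc22d3 among them (adjusted p = 0.0461 and 0.0491). Without the stepped libraries no gene passed and 813 had an unadjusted p below 0.05; 2 young controls then remained. Tsc22d3 kept 1.96 ± 0.39, Fkbp5 2.19 ± 0.48, Ddit4 3.78 ± 0.85, Ccnd3 1.12 ± 0.30 and Gm10392 1.362 ± 0.35.

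The glucocorticoid-induced list showed the largest median of the 23 gene programmes examined. Of its 23 genes, 15 passed the filter on low counts, 3 were called higher and none lower. The median log2 fold change was 0.67 against -0.02 for all genes, and 14 of the 15 were positive, against 48.0% of all genes. In 7 of the 15 every surgery library lay above every control, where the share over all genes was 2.49%. Without the stepped libraries the list's median was 0.84, against 0.02 for all genes, and 13 of 15 were positive. A list whose members were chosen for known hormone responses, with earlier results of these data in view, is not independent evidence of direction.

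Sult1a1, Per1 and Mt1 of the list separated the groups without passing the test, while Zbtb16 had overlapping groups. Sult1a1, a sulfotransferase of phenolic compounds, had 21.6 to 38.0 CPM in controls and 56.6 to 109.04 after surgery (log2 fold change 1.35 ± 0.27, adjusted p = 0.074). Per1 had 9.74 to 28.6 CPM in controls. After surgery it stood at 37.5 to 42.9 in 3 libraries and at 111 in replicate 1, a log2 fold change of 1.48 ± 0.37 (adjusted p = 0.224). Mt1, a metal-binding metallothionein, had 17.6 to 24.7 CPM in controls and 28.6 to 43.8 after surgery, a log2 fold change of 0.67 ± 0.23 (adjusted p = 0.482). Zbtb16, a zinc finger repressor, split the surgery group: 11.6 and 7.46 CPM in replicates 1 and 2, 0.833 and 0.381 in replicates 3 and 4, and 0 to 2.17 in controls.

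Most other members of the list had overlapping groups. Sgk1, with the complete response element in 1 of its 6 upstream windows, had 149 ± 62.2 CPM in controls and 201 ± 30.5 after surgery (SD, n = 4 each). Its log2 fold change was 0.44 ± 0.33. Dusp1, a phosphatase of MAP kinases, had 0.02 ± 0.34, and Nfkbia, the inhibitor IkB-alpha, 0.60 ± 0.32. Sgk1 had 0.12, Dusp1 -0.15 and Nfkbia 0.33 without the stepped libraries. Cdkn1a, at -1.01, was the 1 tested member below 0. The 8 members under the filter were Anxa1, Cd163, Il1r2, Klf15, Klf9, Lcn2, Mt2 and Pdk4.

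No gene on a list of the receptor and its chaperones passed the test. Fkbp5, a co-chaperone that did rise, was counted on the glucocorticoid-induced list instead. Nr3c1 had 9.33, 18.1, 16.7 and 26.2 CPM in controls and 16.6, 17.4, 17.1 and 20.6 CPM after surgery, and its log2 fold change was 0.03 ± 0.36. Of 13 tested genes of the receptor machinery, none was called and the median was 0.03, or -0.04 without the stepped libraries. Hsp90ab1, the constitutive HSP90 that holds the receptor, had 104 to 154 CPM in controls and 86.2 to 104.97 after surgery, with a log2 fold change of -0.44 ± 0.20 (adjusted p = 0.607). Fkbp4, the co-chaperone that competes with Fkbp5 for the complex, had 0.29 ± 0.34.

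**Figure D2:**
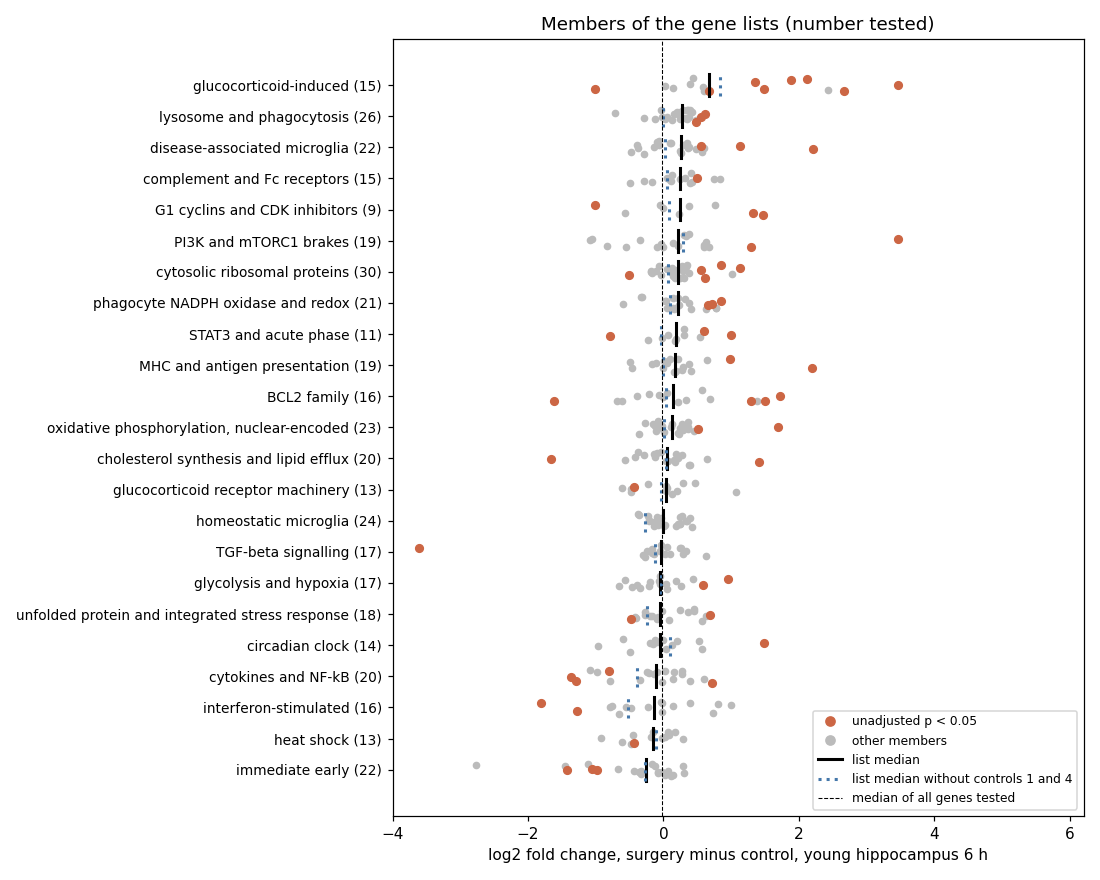
Log2 fold change of each tested member of the 23 programmes, surgery minus control (1 point per gene; orange, unadjusted p below 0.05). Black bars are list medians, blue dotted bars the medians without the stepped libraries, and the dashed line the median of all genes (-0.02); the glucocorticoid-induced list has the highest median with and without these libraries, 0.67 and 0.84.

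Among abundant genes that were not called, the smallest p on the higher side belonged to Ppp1r21, an endosomal protein. It had 23.2, 14.6, 7.97 and 13.7 CPM in controls and 62.8, 45.1, 42.1 and 31.2 after surgery, with a log2 fold change of 1.59 ± 0.31 (adjusted p = 0.0615). Rcan1, an inhibitor of the calcium-dependent phosphatase calcineurin, had 6.02 to 11.1 CPM in controls and 19.4 to 51.7 after surgery (1.68 ± 0.36, adjusted p = 0.121). Ucp2, a carrier of the inner mitochondrial membrane, had 131 to 163 CPM in controls and 204 to 330 after surgery (0.85 ± 0.21, adjusted p = 0.214). In all 3 the groups did not overlap.

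Of the other genes on that side, Pnpla2, the main triglyceride lipase, had 9.12 to 16.6 CPM in controls and 23.7 to 51.3 after surgery. Slc43a2, a transporter of large neutral amino acids, had 5.79 to 14.5 and 20.0 to 44.8 CPM. Tagap, a GTPase-activating protein, had 33.7 to 48.3 and 58.5 to 95.6 CPM, and Dst, a cytoskeletal linker, 28.0 to 91.3 and 86.4 to 148, with a log2 fold change of 1.18 ± 0.28 and 0.76 without the stepped libraries. Pes1, a ribosome biogenesis factor, had 38.7 CPM in surgery replicate 3 against 11.8 to 15.2 in the other surgery libraries and 4.77 to 10.04 in controls, and its log2 fold change of 1.41 ± 0.38 was 0.89 without that library. The adjusted p of these 5 ran from 0.214 for Dst to 0.321 for Tagap and Pnpla2.

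On the lower side Evi2a had the smallest p, with 30.7, 67.2, 72.8 and 42.998 CPM in controls and 19.4, 21.8, 24.2 and 25.5 after surgery (log2 fold change -1.22 ± 0.30, adjusted p = 0.214). Apbb1ip (RIAM, which links Rap1 to integrin activation) had 46.2 to 65.5 CPM in controls and 31.2 to 40.4 after surgery, a log2 fold change of -0.74 ± 0.18 (adjusted p = 0.214). Tet3, an oxidase of methylated cytosine in DNA, had 48.7 to 82.8 and 26.7 to 30.4 CPM, and Clasp1, which stabilises microtubule ends, 16.7 to 28.0 and 10.4 to 12.01. The surgery libraries of these 4 genes lay close together and below every control. Over all genes 1.5% had every surgery library below every control.

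Asb2, a substrate-binding subunit of ubiquitin ligases, and Zcchc7, a factor of nuclear RNA decay, also separated the groups, with log2 fold changes of -0.88 ± 0.27 and -0.96 ± 0.31. Rbpj, the DNA-binding effector of Notch, did not, since control replicate 2 had 13.5 CPM while the other controls had 29.8 to 57.9 and the surgery libraries 9.90 to 16.6. Dlg4, known as a postsynaptic scaffold gene, had -0.93 ± 0.30, and -0.23 ± 0.25 without the stepped libraries. It had -0.30 without control replicate 1 alone, a stepped library with 90.6 CPM against 26.8 to 31.9 in the other controls.

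No gene of inflammatory signalling passed. Of 20 tested cytokine and NF-kB genes the median was -0.12, and 3 were lower and 1 higher at an unadjusted p below 0.05. Over all genes 3.67% were lower and 4.16% higher by that criterion. Il1a, an alarm cytokine, had 12.6, 17.6, 26.1 and 15.5 CPM in controls and 7.85, 9.64, 11.7 and 11.4 after surgery, a log2 fold change of -0.81 ± 0.25 (adjusted p = 0.402). Tnfaip3 (A20, a brake on NF-kB) had 11.6 to 43.5 CPM in controls and 7.85 to 15.6 after surgery, and Nfkb2, the p100 subunit precursor, 5.01 to 12.7 and 3.11 to 5.08. Tnf had 1.45 to 14.1 and 1.56 to 7.996 CPM, with a log2 fold change of -1.08 ± 0.59 (adjusted p = 0.686). Il1b, Il6, Cxcl10 and Nos2 were under the filter. Without the stepped libraries the list's median was -0.40, with 5 lower and none higher at an unadjusted p below 0.05. Of the 13506 genes tested in both fits, 378 were then lower and 398 higher by that criterion.

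Immediate early genes, which respond within minutes to stimuli and to tissue dissociation, had a median of -0.26 over 22 tested members, with none called and 3 lower at an unadjusted p below 0.05. Atf3 spanned 30.5 to 108.5 CPM in controls and 12.9 to 42.6 after surgery, Ier3 15.9 to 25.5 and 5.41 to 15.99, and Jund 10.04 to 25.7 and 5.08 to 9.52 (-0.98, and -0.65 without the stepped libraries). Interferon-stimulated genes had a median of -0.14 over 16, with Xaf1 at 12.04 to 27.8 CPM in controls and 1.87 to 10.7 after surgery (-1.81 ± 0.70, adjusted p = 0.538). That median was -0.52 without the stepped libraries and Xaf1 had -1.15 ± 0.75, its controls at 27.8 and 26.8 CPM being the stepped ones and the other 2 having 12.04 and 13.4. Within the STAT3 and acute phase list, the signalling receptor subunit Il6st had -0.79 ± 0.29 and its partner Lifr 1.00 ± 0.34, and Lifr separated the groups at 18.8 to 45.8 and 47.5 to 79.9 CPM (1.72 ± 0.36 without the stepped libraries). Socs3, the feedback inhibitor of STAT3 signalling, had 0.31 ± 0.31, and -0.04 without the stepped libraries.

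Homeostatic microglial identity genes gave a median of -0.01 over 24, with none called and none at an unadjusted p below 0.05. P2ry12, the purinergic receptor that guides microglial processes, had 438, 661, 729 and 573 CPM in controls and 438, 430, 479 and 498 after surgery (-0.38 ± 0.22, adjusted p = 0.697; -0.60 ± 0.25 without the stepped libraries). Tmem119 had 384 CPM in stepped control 1, 532 to 860 in the other controls and 623 to 817 after surgery. Its log2 fold change was 0.27 ± 0.22, and -0.04 without the stepped libraries, where the list's median was -0.28.

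Lysosomal, phagocytic and complement genes had other values once the stepped libraries were left out. Of 26 lysosome and phagocytosis genes none was called, 21 were positive and the median was 0.27; without the stepped libraries 12 were positive and the median was -0.0008. The summed level of that list was 17704 and 28620 in the stepped controls, 40480 and 32801 in the other 2, and 35841 to 44268 after surgery. Ctss (cathepsin S) had a log2 fold change of 0.48 ± 0.23 with the stepped controls and 0.12 ± 0.22 without, and Npc2, a lysosomal cholesterol carrier, 0.61 ± 0.30 and 0.17 ± 0.25. Ctsd (cathepsin D) kept more, at 0.55 ± 0.22 and 0.34 ± 0.20, and so did the Fc receptor Fcgr3, at 0.49 ± 0.20 and 0.36 ± 0.23. Complement and Fc receptor genes had a median of 0.25 with and 0.06 without, and disease-associated microglial genes 0.26 and 0.02.

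**Figure D3:**
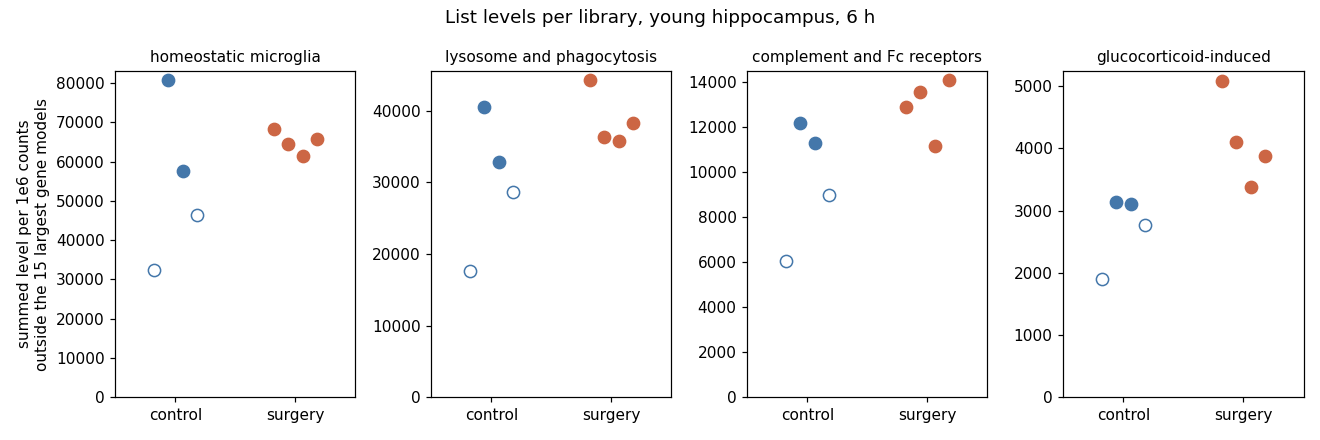
Summed level of 4 gene lists in each library, on a CPM scale without the 15 largest gene models, on a linear axis from 0 (open circles: stepped controls 1 and 4). The open circles lie lowest in all 4 lists. In the homeostatic, lysosomal and complement lists the other 2 controls overlap the surgery libraries. In the glucocorticoid-induced list stepped controls lie at 1905 and 2766, the other 2 at 3138 and 3113.5, and surgery libraries at 3380 to 5087.

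Among the oxidase and redox genes 18 of 21 were positive, with none called and a median of 0.21; without the stepped libraries 11 were positive and the median was 0.09. Ncf1, a cytosolic part of the superoxide-producing phagocyte oxidase, had 64.9 to 103 CPM in controls and 106.2 to 172 after surgery (0.66 ± 0.22, adjusted p = 0.453). Pik3ip1, a brake on PI3K, had 1.09 to 11.4 and 9.52 to 24.5 CPM, a log2 fold change of 1.29 ± 0.54 (adjusted p = 0.597) and 2.44 ± 0.71 without the stepped libraries, and the median of 19 PI3K and mTORC1 brakes was 0.22. Casp9, the initiator caspase of the mitochondrial pathway, split the surgery group, with 35.6 and 30.8 CPM in replicates 1 and 2, 10.8 and 7.23 in replicates 3 and 4, and 3.94 to 8.69 in controls. Against 1.48 for Per1, the 14 tested clock genes had a median log2 fold change of -0.05, with Per2 at 0.04 and Dbp at -0.20. The median was 0.09, Per2 had -0.27 and Dbp 0.06 without the stepped libraries. Cytosolic ribosomal protein genes had a median of 0.21 over 30 and 0.07 without the stepped libraries, and their reads are uncertain because of processed copies in the genome.

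The hemisphere libraries of the same 8 young animals give the same genes in other cells of the same brains, and none of them is stepped. Tsc22d3 had 34.4, 17.0, 28.1 and 31.8 CPM in the hemisphere of control animals 1 to 4 and 144, 101.6, 87.04 and 95.7 after surgery (log2 fold change 1.94 ± 0.35). Fkbp5 had 10.7, 23.05, 16.9 and 30.4 CPM and then 88.4, 71.02, 42.7 and 34.8 (1.54 ± 0.32), so the 4 surgery animals kept the order they had in the hippocampus. Ddit4 had 0 to 1.01 CPM in controls and 6.54 to 21.7 after surgery, and Ccnd3 27.8 to 38.2 and 72.6 to 83.9. In the hemisphere fit, where 0.0549% of genes were called higher, Tsc22d3, Ddit4 and Ccnd3 passed, each at an adjusted p of 0.0198, and Fkbp5 did not (adjusted p = 0.0713). Gm10392 did not pass there either (1.03 ± 0.30, adjusted p = 0.571). Sult1a1, just outside the threshold in the hippocampus, passed in the hemisphere (1.41 ± 0.25, adjusted p = 0.0198).

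The difference of the surgery effect between regions was tested within animals, as hippocampus minus hemisphere. No gene of 12496 passed with edgeR, DESeq2 or limma voom, and 556 (4.45%) had an unadjusted p below 0.05 with edgeR. The difference was -0.11 ± 0.27 for Tsc22d3, 0.48 ± 0.47 for Fkbp5, -0.99 ± 0.89 for Ddit4, 0.10 ± 0.26 for Ccnd3 and 0.35 ± 0.40 for Gm10392. Without the animals of stepped controls 1 and 4 it was -0.32 ± 0.23 for Tsc22d3, 0.57 ± 0.34 for Fkbp5 and 0.07 ± 1.07 for Ddit4. Ccnd3 then had 0.06 ± 0.26 and Gm10392 0.39 ± 0.43. The test does not show that the 2 regions responded alike, since differences of the size of these errors could not be seen. Tet3 had hemisphere levels of 25.8 to 38.1 CPM in controls and 27.1 to 41.4 after surgery, and a difference of -1.26 ± 0.29 (adjusted p = 0.893). Rcan1 had hemisphere levels of 10.5 to 19.4 and 12.8 to 41.5 CPM, and a difference of 1.07 ± 0.39 (adjusted p = 0.999). For Rbpj and Pes1 the difference was -1.78 ± 0.88 and 1.32 ± 0.58. Without the animals of the stepped controls it was -2.06 ± 1.25 and 0.49 ± 0.56. The glucocorticoid-induced list had a median of 0.89 in the hemisphere, and the lysosomal list 0.04.

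**Figure D4:**
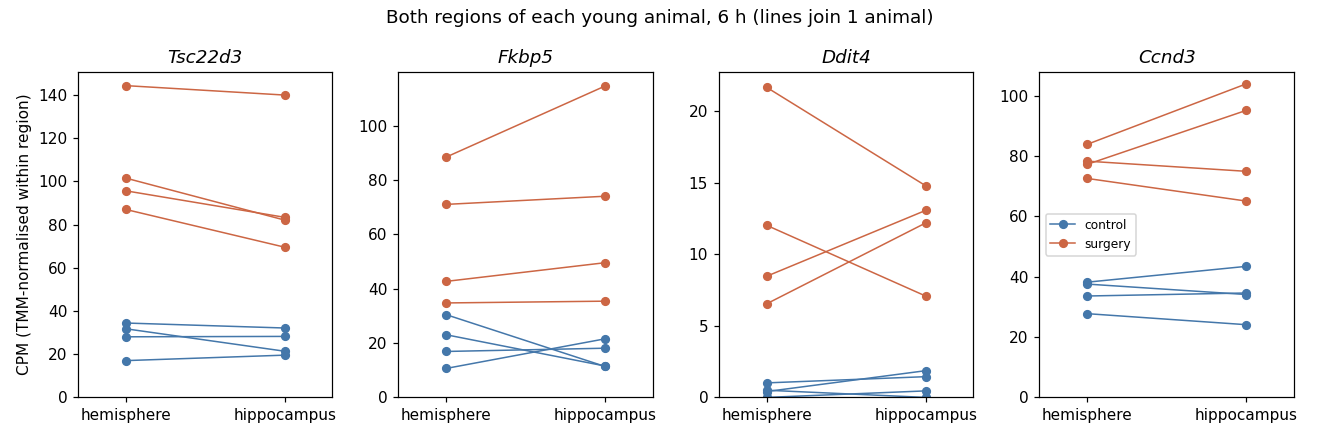
CPM of 4 genes in hemisphere and hippocampus, on linear axes from 0; each line joins both regions of 1 young animal at 6 h, blue for control and orange for surgery. Control and surgery animals are separate in both regions for all 4 genes, and the animal with 115 CPM of Fkbp5 in hippocampus also has the highest hemisphere level, 88.4.

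Old hippocampus at 6 h, whose libraries share 1 table and 1 fit with the young ones, also held higher levels of the same genes. Tsc22d3 had 15.1 to 43.5 CPM in 8 old controls (median 29.2) and 56.9 to 122 in 7 old surgery libraries (median 85.95), a log2 fold change of 1.57 ± 0.21. Fkbp5 had 2.06 ± 0.26, Ddit4 4.01 ± 0.48 and Ccnd3 1.14 ± 0.18, and all 4 passed there (0.0803% of genes were called higher), with adjusted p from 0.000123 for Ddit4 to 0.00271 for Ccnd3. Gm10392 had 0.90 ± 0.19 (adjusted p = 0.0593). The glucocorticoid-induced list had a median of 0.30 in old hippocampus, with 13 of 15 tested members positive. In young hippocampus its median was 0.67, and the difference between these medians was not tested. The test of the difference, old minus young, gave -0.31 ± 0.34 for Tsc22d3, -0.05 ± 0.44 for Fkbp5, 0.55 ± 0.79 for Ddit4, -0.18 ± 0.30 for Ccnd3 and -0.61 ± 0.32 for Gm10392. Without the stepped libraries, old surgery replicates 5 and 6 among them, the old log2 fold change was 1.50 ± 0.23 for Tsc22d3, 2.09 ± 0.28 for Fkbp5, 4.04 ± 0.48 for Ddit4 and 1.21 ± 0.19 for Ccnd3, and these 4 again passed. The difference was then -0.45 ± 0.43 for Tsc22d3, -0.10 ± 0.54 for Fkbp5, 0.26 ± 1.06 for Ddit4, 0.09 ± 0.35 for Ccnd3 and -0.47 ± 0.41 for Gm10392. No gene of 13703 passed the test of the difference with edgeR (0%), 1273 (9.29%) had an unadjusted p below 0.05, and DESeq2 called 15.

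Some genes near the threshold in the young had other values in the old. Rbpj had a log2 fold change of -1.46 ± 0.45 in young and 1.11 ± 0.32 in old hippocampus, a difference of 2.57 ± 0.56 (adjusted p = 0.208). Pes1 had 1.41 ± 0.38 and -0.47 ± 0.27, a difference of -1.88 ± 0.47 (adjusted p = 0.345). Clasp1 had -1.03 ± 0.29 and 0.03 ± 0.21, a difference of 1.06 ± 0.36 (adjusted p = 0.511). None of these differences passed. Other genes near the threshold in the young had the same sign in old hippocampus and passed the edgeR test there. Ppp1r21 had 1.59 ± 0.31 in young and 1.53 ± 0.23 in old (old adjusted p = 0.00102). Tagap had 0.84 ± 0.23 and 0.97 ± 0.17 (0.00886), and Rcan1 1.68 ± 0.36 and 1.355 ± 0.255 (0.0235).

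At 48 h, in other young animals, the 5 genes lay near control levels. Tsc22d3 had 42.4 to 73.6 CPM in the 48 h controls and 40.3 to 64.7 after surgery (log2 fold change -0.15 ± 0.38), and Fkbp5 11.5 to 38.4 and 14.5 to 36.4 (0.27 ± 0.34). Ddit4 had 0.41 to 7.93 CPM in controls and 0.785 to 6.66 after surgery, and Ccnd3 29.5 to 58.99 and 27.9 to 60.2. The 48 h controls of Tsc22d3 were thus all above the 6 h controls, a comparison between separate tables. No gene of 11985 passed at 48 h with edgeR, and 731 (6.1%) had an unadjusted p below 0.05.

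The difference of the surgery effects, 48 h minus 6 h, was -2.03 ± 0.39 for Tsc22d3 (adjusted p = 0.283), -1.85 ± 0.59 for Fkbp5, -3.70 ± 1.06 for Ddit4 and -1.43 ± 0.40 for Ccnd3 (each adjusted p = 0.732). Per1 had -2.24 ± 0.56, with 48 h levels of 27.0 to 74.4 CPM in controls and 25.1 to 46.6 after surgery. No gene of 12413 passed this test with edgeR, 721 (5.81%) had an unadjusted p below 0.05, and DESeq2 called 4. The glucocorticoid-induced list had a median of -0.08 at 48 h, with 6 of 13 tested members positive.

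**Figure D5:**
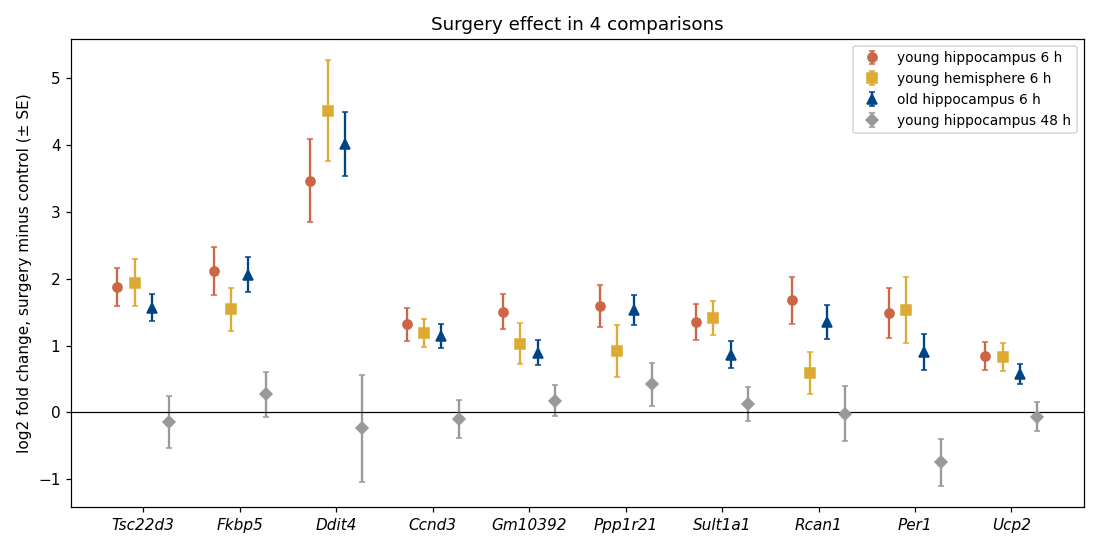
Log2 fold change of surgery minus control, with its standard error, for 10 genes in young hippocampus at 6 h (circles), the hemisphere of the same animals (squares), old hippocampus at 6 h (triangles) and young hippocampus at 48 h (diamonds). The 6 h values are all above 0, from 0.57 for Ucp2 in old hippocampus to 4.51 for Ddit4 in hemisphere; the 48 h values run from -0.75 for Per1 to 0.42 for Ppp1r21.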

How the data were processed

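Each deposited table gives estimated counts for Ensembl gene models, in whole numbers and with each library in its own column, per the file headers. Build mm10, R 4.2.1 and DESeq2 1.36.0 appear in the submitters' processing notes. Aligner, counter, annotation release and use of strand were not given in the sources used here. All columns were used, and 54495 of 54532 identifiers had a symbol in the GENCODE M21 annotation. Genes were tested with edgeR 4.0.16 (R 4.3.3): TMM, filterByExpr at a minimum count of 10, and the robust quasi-likelihood F-test, BH threshold 0.05. The fit held all 23 hippocampus libraries at 6 h, young and old, which share 1 estimate of the spread; the contrast is young surgery minus young control. The region difference had the animal as a block, and the 48 h difference used 16 young hippocampus libraries. The design had assumed raw counts; the count test was kept for the whole-number estimated counts. Code was tested on simulated data. Alternatives were DESeq2 1.42.0, limma 3.58.1 voom, other scaling and filters, and left-out libraries. Same-numbered control and surgery libraries did not deviate together, so no block was used.

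Named genes were those called, listed glucocorticoid genes with an unadjusted p below 0.05, the 10 genes each way with the smallest p whose mean log2 CPM reached 4, up to 3 per other list, and 8 fixed genes. Sgk1, Fkbp4, Stab1, Dusp1, Nfkbia and other list members outside this rule were named after their values were seen. Members and lists were chosen with earlier results of these data known. Counts outside the 15 largest models were 542338 to 1506822 per library, so genes of a few CPM rest on few counts.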

Additional observations from a re-analysis of the deposited data

Results flagged for a closer look

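In 9 of 152 sets of 4 values examined, 1 library lay far from the other 3. Each set was a gene or a library measure in the young control or young surgery group. A rate of 1 in 20 gives 7.6 flags for independent sets. These sets share the same 8 libraries, and many of the genes were chosen by their values, so 7.6 does not measure chance here. In 3 cases the far library was surgery replicate 1: Per1 at 110.9 CPM with the next library at 42.92, Rcan1 at 51.75 with the next at 22.39, and Cdk6 at 147.9 with the next at 35.77. Without that library the log2 fold change was 0.96 instead of 1.48 for Per1, 1.24 instead of 1.68 for Rcan1 and 0.31 instead of 1.47 for Cdk6. Surgery replicate 3 had 38.74 CPM of Pes1, with the next at 15.25. In 3 cases it was a stepped control: control replicate 1 had 90.6 CPM of Dlg4 (next 31.85) and 0.622 CPM of Lgals3 (0 in the other controls), and control replicate 4 had 13.65 CPM of Sdhc (next 2.509). Control replicate 2 had the lowest Cdkn1a, 8.028 CPM with the next at 22.45, and the highest Il6st, 82.29 CPM with the next at 48.52.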

How the results depend on the processing

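The 5 genes kept their positive sign in every alternative run. The count of genes called was 5 with DESeq2 size factors, 5 without the 15 largest models and 4 with limma voom, which lost Ddit4 (adjusted p = 0.121). It was 9 with no filter on low counts, which lost Gm10392 (adjusted p = 0.0803), and 29 with DESeq2 (23 higher, 6 lower). It was 0 when only the 8 young libraries were fitted (unadjusted p below 0.05 for 794 genes), which leaves fewer animals to estimate the spread, and 0 without the stepped libraries. Leaving out 1 library at a time gave 0 to 6 called. With the replicate number as a block among the 8 young libraries the count was 0, with 489 genes at an unadjusted p below 0.05; the correlations of same-numbered libraries, -0.148 to -0.0105, do not make the numbers a pairing. For old minus young the count was 2 with no filter and 15 with DESeq2, and 0 with each young library left out; no old library was left out alone. For hippocampus minus hemisphere it was 55 with no filter and 0 to 4 with an animal left out (4 without control animal 3). For 48 h minus 6 h it was 99 with no filter, 4 with DESeq2, and 0 to 2 with a library left out (2 without 6 h control replicate 3); the cause was not tested. Without the stepped libraries, an alternative added for these 3 differences after the data were seen, each count was 0, with 693, 658 and 624 genes at an unadjusted p below 0.05. Signs turned for Clec7a (0.2462 with limma voom; -0.7736 to 0.061 with a library left out), Nr3c1 (-0.1846 to 0.3165 with a library left out; -0.0287 with only the young libraries), Tmem119 (-0.0355) and Socs3 (-0.0401), the last pair without the stepped libraries. None of these 4 was called.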
